A study of Homo sapiens with 4 samples.

Results

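LINC00473, the coactivators CRTC1, CRTC2 and CRTC3 and the cAMP phosphodiesterases PDE4A, PDE4B, PDE4C, PDE4D, PDE7A and PDE7B were followed in A549 cells given an FCN3 virus. These are 10 of the 25192 genes in the deposited tables. LINC00473, PDE4B, PDE4D and PDE7B were selected on their lower level with the FCN3 virus in these libraries, so their fall is described here without a test. The other 6 came in as paralogs of those genes or as CRTC family members, and were tested. All 10 passed the filter on low counts, which kept 14099 genes.

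RNA-seq was done on 4 libraries of A549, a line derived from a human lung adenocarcinoma that carries a mutated STK11, the gene of the kinase LKB1. The 2 groups had 2 libraries each, made 48 h after infection with a pLZRS-IRES-GFP retrovirus. The control empty virus (EV) carried GFP only, and the FCN3 virus carried V5-tagged FCN3, a lectin of innate immunity, before the same GFP cassette. The libraries held between 16353554 and 35733735 expected counts. FCN3 itself had 722388 and 448352 counts after its virus, where EV cells had 1 and 0, so the second group makes FCN3 from a vector at a level far above that of the control cells. Each of the 5 epithelial markers (KRT8, KRT18, KRT19, EPCAM and CDH1) was above a floor of 3 counts in every library. None of the 4 alveolar type II markers (SFTPA1, SFTPB, SFTPC and NKX2-1) was above it in any library, and SFTPA1 was at 0 in all 4. CD14, 1 of 3 immune markers, and COL1A1, 1 of 3 fibroblast markers, were also above the floor in every library. COL1A1 had 313 to 526 counts, where the epithelial EPCAM had 29 to 82. None of 3 endothelial markers was above the floor in every library. Nothing in the labels says that the replicates came from separate infections, so p-values measure the spread between these libraries, which may be technical. Genes were tested with edgeR's quasi-likelihood test and called at an adjusted p of 0.01 over all tested genes. A second fit took the replicate number as a block, which compares libraries of the same number, since same-numbered libraries deviated together. Its values are given beside the first for the tested members and for some of the other genes. With 4 libraries it leaves 1 degree of freedom to estimate the spread of each gene. Its p-values rest largely on spread shared across genes, so very small ones are not read here as strong evidence for any 1 gene. It called 5103 genes, where the first fit called 136.

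Cyclic AMP is made by adenylyl cyclases and activates protein kinase A (PKA), which phosphorylates the transcription factor CREB. Phosphodiesterases end the signal, and the PDE4 and PDE7 enzymes cleave cAMP and not cGMP. CRTC proteins are coactivators of CREB that salt-inducible kinases, activated by LKB1, hold in the cytoplasm with 14-3-3 proteins. Calcineurin releases them to the nucleus. LINC00473 is a long noncoding RNA known as a CREB and CRTC target that is abundant in lung cancer cells without LKB1.

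CREB binds the cAMP response element TGACGTCA and, more weakly, its core TGACG, so the bases before the starts of the members are shown with these in capitals on either strand. Sequences were taken from the RefSeq promoter table and placed on GRCh37 by exact match. Each is printed 5′ to 3′ on the strand of the gene up to its annotated start. The windows chosen are the start of LINC00473, the start of PDE7B, the PDE4D start that holds a single core, and the PDE4A start that holds the most sites of any member.
LINC00473 (chr6:166401528-166401777, minus strand): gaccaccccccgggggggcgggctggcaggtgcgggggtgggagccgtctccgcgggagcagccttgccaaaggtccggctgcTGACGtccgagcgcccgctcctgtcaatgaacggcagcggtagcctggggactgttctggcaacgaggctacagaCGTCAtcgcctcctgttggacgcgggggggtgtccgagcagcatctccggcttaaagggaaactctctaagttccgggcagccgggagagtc
PDE7B (chr6:136172589-136172838, plus strand): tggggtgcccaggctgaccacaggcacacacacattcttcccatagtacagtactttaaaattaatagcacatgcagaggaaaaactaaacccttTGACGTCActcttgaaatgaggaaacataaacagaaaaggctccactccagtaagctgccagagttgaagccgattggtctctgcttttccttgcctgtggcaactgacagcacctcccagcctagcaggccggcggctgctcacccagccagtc
PDE4D, start 4 of 8 (chr5:58883452-58883701, minus strand): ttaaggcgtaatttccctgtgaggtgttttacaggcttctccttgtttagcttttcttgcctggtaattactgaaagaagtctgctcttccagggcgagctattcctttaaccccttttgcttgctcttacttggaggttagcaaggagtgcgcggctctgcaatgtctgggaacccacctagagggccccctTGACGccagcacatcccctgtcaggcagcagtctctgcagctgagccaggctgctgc
PDE4A, start 1 of 5 (chr19:10527199-10527454, plus strand, with the first 6 bases of the transcript): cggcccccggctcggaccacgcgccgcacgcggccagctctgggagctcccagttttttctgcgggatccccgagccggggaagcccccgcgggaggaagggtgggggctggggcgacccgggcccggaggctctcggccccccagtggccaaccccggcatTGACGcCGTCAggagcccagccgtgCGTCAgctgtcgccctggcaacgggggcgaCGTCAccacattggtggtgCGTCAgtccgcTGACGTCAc
PDE7B held 1 full element, beginning 155 bases before its start. LINC00473 held no full element and 2 cores that begin 167 and 92 bases before its start, on opposite strands. PDE4A, whose RNA differed least between the groups among the PDE4 genes with over 1 CPM, held the element across its start and 5 cores upstream of it.

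**Figure D1:**
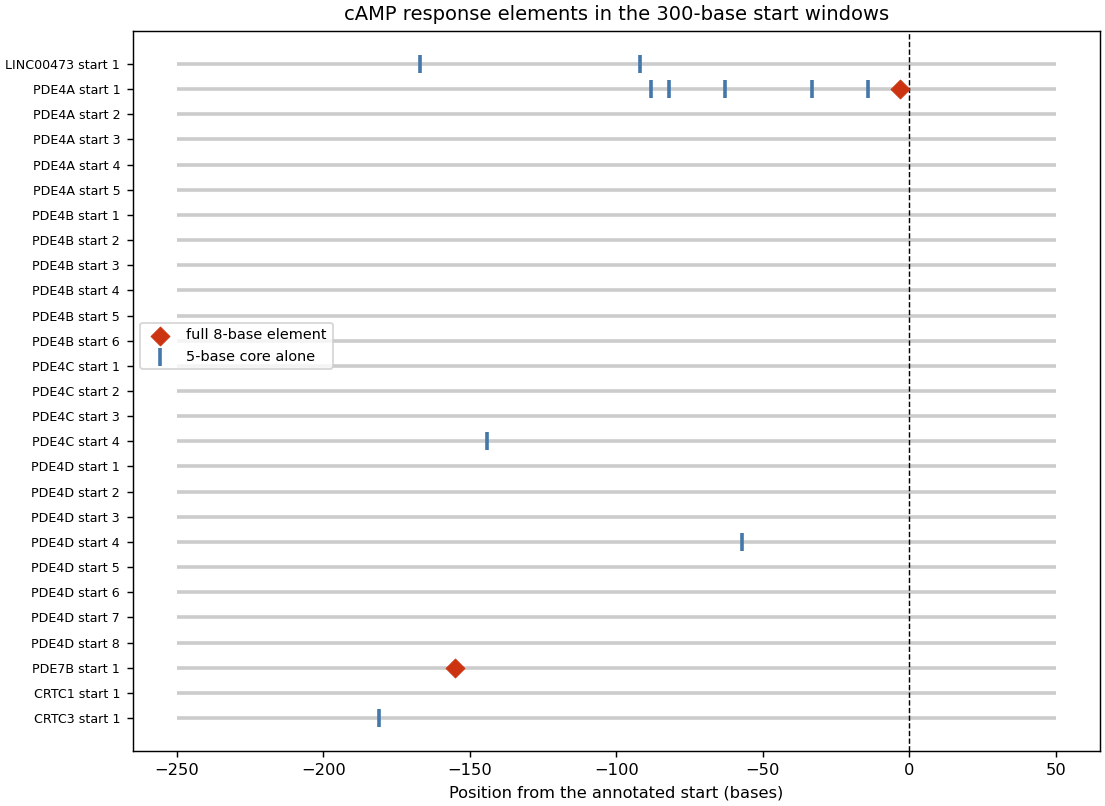
Position of full cAMP response elements and their cores in each annotated start window of the members, from 250 bases before to 50 bases after the start (dashed line), with 1 row per start. PDE4A start 1 and PDE7B hold a full element, LINC00473 holds 2 cores, and the 6 windows of PDE4B are empty.

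The table gave 27 windows of 300 bases for 8 of the members, and PDE7A and CRTC2 had no entry. The full element stood in 2 of the 27 windows, and in 1.85% of all 35116 windows. The core, alone or within a full element, stood in 6 of the 27, and in 24.6% of all windows. PDE4C start 4 and CRTC3 each held 1 core, and CRTC1 held none. A match is a description of the letters and no evidence of binding, and the 4 members picked for their falls did not share a motif.

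LINC00473, PDE7B, PDE4B and PDE4D were all lower in both FCN3 virus libraries than in either EV library, by 17.2-fold, 3.56-fold, 2.61-fold and 2.45-fold. PDE7A and PDE4A were lower by less, and neither passed the test without a replicate block. CRTC1, CRTC2 and CRTC3 overlapped between the groups, as did PDE4C, which was close to the detection floor. PDE4D and PDE7B were the most abundant PDE4 and PDE7 transcripts per length in EV cells. In bulk RNA, fewer cells with a transcript and less of it per cell cannot be told apart.

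**Figure D2:**
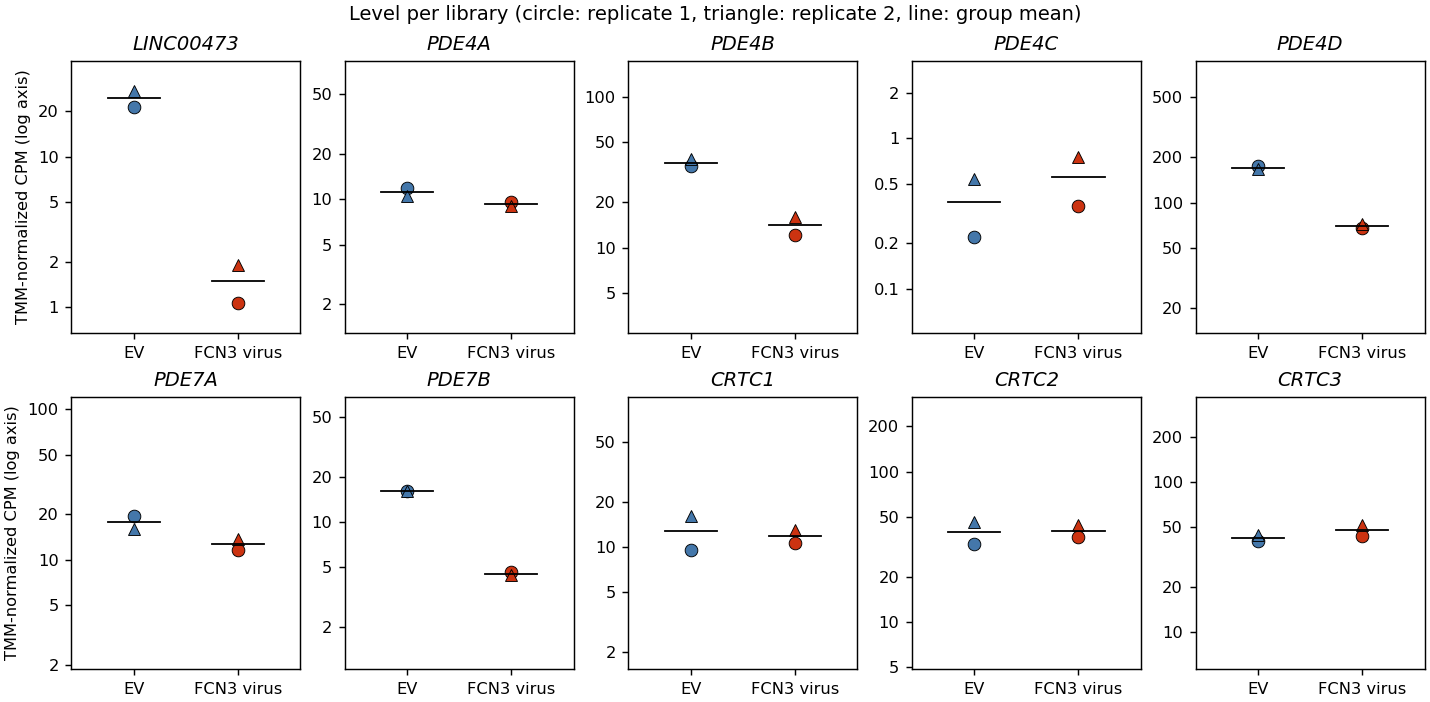
TMM-normalized counts per 1000000 (CPM, log axis spanning the same fold range in each panel) of each member in the 2 EV and 2 FCN3 virus libraries, with group means as lines. LINC00473 goes from 21.3 and 27.4 CPM to 1.06 and 1.91, and the CRTC panels overlap.

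LINC00473 had 21.3 and 27.4 CPM in EV replicates 1 and 2, and 1.06 and 1.91 CPM in FCN3 virus replicates 1 and 2. CPM here are counts per 1000000 after TMM normalization, which scales libraries to a common composition. Its mean was 24.4 ± 4.31 (SD, n = 2) against 1.49 ± 0.6 (n = 2), which left 5.81% of the EV level. The low libraries still held 36.07 and 38 expected counts, well above the floor. The log2 fold change was -4.11 (SE 0.29), the 4th lowest of the 14099 genes tested, and it was -4.24 between the replicates numbered 1 and -3.79 between those numbered 2. Both pairs gave a fall of similar size, and leaving out any 1 library gave between -4.51 and -3.66.

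LINC00473 shared reads with LINC00602, a noncoding gene that GENCODE places on the plus strand at chr6:166401039-166403103 of GRCh37, across the LINC00473 start. RSEM divides a read that fits several genes, and LINC00473 had a fractional count in 3 of the 4 libraries, while the sum of both genes was whole (within 0.005) in 4 of 4. The sums were 801, 477, 42 and 38 counts, of which LINC00602 held 24.02, 18.49, 5.93 and 0. In CPM the sums were 22 and 28.5 with EV, and 1.24 and 1.91 with the FCN3 virus, and the groups stood as far apart as for LINC00473 alone. LINC00602 on its own had 0.659 and 1.08 CPM with EV, and 0.177 and 0 with the FCN3 virus (a log2 change of -2.80, SE 0.81, edgeR adjusted p = 0.104, and 8.7e-05 with the block).

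None of the other tested genes beside LINC00473 on chromosome 6, in RefSeq order, was called with or without the block. On one side lay QKI, an RNA-binding protein, with 154 and 134 CPM against 135 and 142 (edgeR adjusted p = 0.787). PDE10A, a phosphodiesterase of both cAMP and cGMP, is its next neighbour there, with 30.8 and 25.3 against 26.2 and 24.6 CPM (edgeR adjusted p = 0.555). SFT2D1 on the far side had 16.5 and 17.1 against 16.2 and 15.9 CPM (edgeR adjusted p = 0.796). C6orf118 and PRR18 were under the filter.

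PDE4D (chr5:58264865-59817947 of GRCh37, minus strand) is a protein-coding gene, counted here over 9 transcripts. Among the 24 genes with phosphodiesterase names its mean TPM was highest in EV cells, where its range overlapped that of PDE6D. It had 174 and 168 CPM with EV, and 68.2 and 71.5 CPM with the FCN3 virus. The log2 fold change was -1.29 (SE 0.08), with -1.35 and -1.23 in the pairs. Replicates lay far closer to each other than the groups did, and PDE4D ranked 145th from the lowest change. PART1 on the opposite strand shared a few of its reads, and the counts of both together were whole, at 6387 and 2823 with EV and 2335 and 1435 with the FCN3 virus.

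PDE4B (chr1:66258197-66840262, plus strand), an enzyme known for its role in inflammatory cells, had 34.6 and 38.6 CPM with EV, and 12.2 and 16 CPM with the FCN3 virus. The log2 fold change was -1.38 (SE 0.16), with -1.50 and -1.26 in the pairs. PDE7B (chr6:136172839-136516712, plus strand), an enzyme insensitive to the PDE4 inhibitor rolipram, had 16.2 CPM in both EV libraries, and 4.66 and 4.42 CPM with the FCN3 virus. Its log2 fold change was -1.83 (SE 0.15), with -1.78 and -1.86 in the pairs. For both genes the EV libraries stood together and apart from the FCN3 virus libraries.

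The paralogs had smaller differences than the genes above. PDE7A had 19.5 and 16 CPM with EV, and 11.6 and 13.7 CPM with the FCN3 virus, a log2 fold change of -0.51 (SE 0.17). It was not called by edgeR (adjusted p = 0.139 over all genes) or DESeq2 (0.168), and was called only by edgeR with the replicate number as a block (5.3e-05), not by DESeq2 with the block (0.0603). The difference was -0.75 in the pair numbered 1 and -0.22 in the pair numbered 2, so its size rested much on the former. PDE4A (chr19:10527449-10580306, plus strand) had 11.9 and 10.5 CPM with EV, and 9.64 and 9 CPM with the FCN3 virus (a log2 change of -0.27, SE 0.15, edgeR adjusted p = 0.339, and 0.0495 with the block). PDE4A groups did not overlap, but the gap was small. PDE4C (chr19:18318775-18359010, minus strand) had only 8 and 9 counts with EV, and 12 and 15 with the FCN3 virus (a log2 change of 0.64, SE 0.67, edgeR adjusted p = 0.608, and 0.35 with the block), so no change was detectable at this depth.

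CRTC2 (chr1:153920145-153931091, minus strand), the most abundant of the coactivators per length, had 32.9 and 46.2 CPM with EV, and 36.5 and 44.3 CPM with the FCN3 virus. Its log2 fold change was 0.04 (SE 0.19, edgeR adjusted p = 0.93). CRTC3 (chr15:91073155-91188577, plus strand) had 40.4 and 44.7 against 44 and 51.7 CPM, a log2 fold change of 0.17 (SE 0.12, edgeR adjusted p = 0.451, and 0.0412 with the block). CRTC1 (chr19:18794488-18893143, plus strand) had 9.58 and 16 against 10.7 and 12.9 CPM, a log2 fold change of -0.08 (SE 0.27, edgeR adjusted p = 0.887). For each coactivator the group ranges overlapped, and the SE without the block leaves room for modest changes either way. With the block the log2 fold change was 0.05 for CRTC2 (SE 0.07, edgeR adjusted p = 0.616) and -0.06 for CRTC1 (SE 0.11, edgeR adjusted p = 0.706). For CRTC3 it was 0.16 (SE 0.07). These are RNA levels, and the phosphorylation and location of the proteins, by which CRTC activity is known to be set, were not measured.

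Of the 6 members taken by family, 0 were called by edgeR without the block, where 0.965% of all tested genes were called, and 1 had an unadjusted p under 0.05, as 25.1% of all genes did. With the block 1 was called, PDE7A, where 36.2% of all genes were called, and 3 had an unadjusted p under 0.05, as 52.5% of all genes did. DESeq2 called 0 of them both without the block, where it called 7.86% of genes, and with it, where it called 16.2%. The median log2 fold change of the 6 was -0.02, beside 0.02 for all tested genes. In 6 of the 10 members both FCN3 virus libraries were lower than both EV libraries, a pattern held by 26.5% of all tested genes, but 4 of those 6 were picked for it. Among the members taken by family it was 2 of 6, PDE4A and PDE7A.

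**Figure D3:**
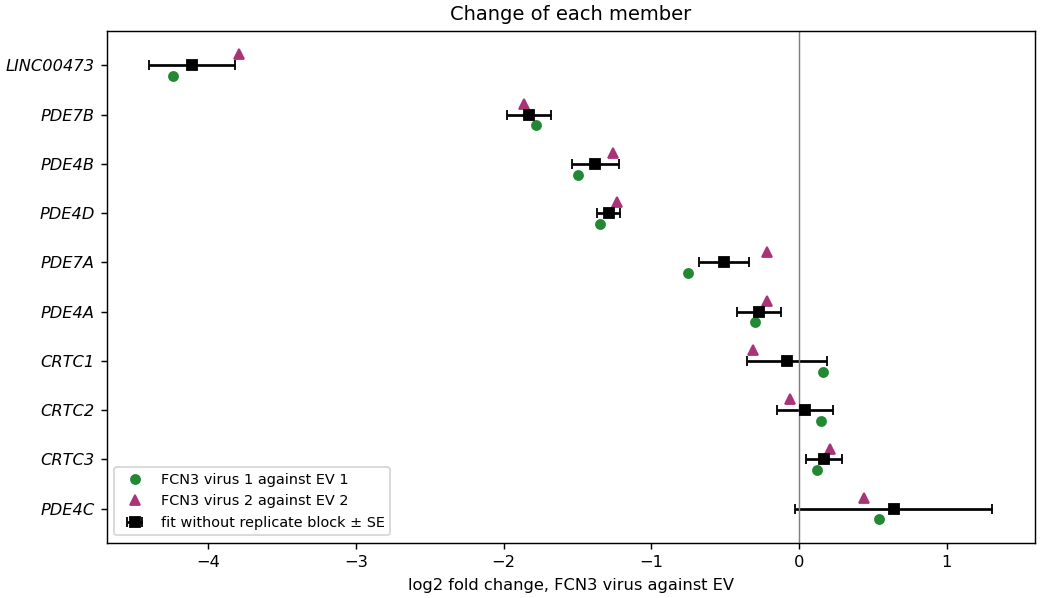
Log2 fold change of each member, FCN3 virus against EV, from edgeR without the replicate block (squares, bars are SE) and between same-numbered replicates (circles and triangles). LINC00473 stands at -4.11, PDE7B, PDE4B and PDE4D lie between -1.83 and -1.29, and the CRTC genes lie around 0.

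Replicate number also moved some members. In edgeR with group and replicate in 1 model, 3 of the 10 differed between replicates 1 and 2, where 22.2% of all genes did. Each was higher in replicate 2, as were 11.7% of all genes, CRTC2 by 0.38 (SE 0.07, adjusted p = 2.8e-05) on the log2 scale, CRTC1 by 0.50 (SE 0.11, adjusted p = 4.8e-04) and LINC00473 by 0.44 (SE 0.13, adjusted p = 0.00571). For CRTC1, 0.50 between replicates stood beside -0.08 between EV and FCN3 virus. PDE4D, PDE7A and PDE7B had 0.01, -0.04 and -0.02, and were not called. The libraries numbered 1 held more reads than those numbered 2, and the part of depth in these differences was not tested.

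Per length, in transcripts per 1000000 (TPM), the order of the members changed. In EV cells PDE4D was highest with 40.9 ± 1.35 TPM (SD, n = 2), above LINC00473 with 31.8 ± 5.37 and CRTC2 with 28.8 ± 6.67, which overlapped each other. PDE4B had 17.7 ± 1.15, CRTC3 15.3 ± 1.01 and PDE7B 5.67 ± 0.0283 TPM, each apart from the next. PDE7A, PDE4A and CRTC1 followed with 5.02, 4.58 and 3.44 TPM, each overlapping the next, and PDE4C was last with 0.14 TPM. LINC00473 was therefore among the most abundant transcripts of this set in the control cells.

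With the FCN3 virus CRTC2 came first with 27.4 ± 4.09 TPM, before CRTC3 with 16 ± 2.02 and PDE4D with 15.5 ± 0.679, which overlapped. PDE4B had 6.46 ± 1.29 TPM. PDE4A, PDE7A and CRTC1 had 3.54, 3.33 and 2.96 TPM, each overlapping the next. LINC00473 had dropped to 1.86 ± 0.686 TPM, next to PDE7B with 1.48 ± 0.0354, which it overlapped, and PDE4C was last with 0.19 TPM.

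The PDE4 genes together summed to 63.6 and 62.9 TPM in the EV libraries, and to 24.3 and 27.1 TPM with the FCN3 virus. PDE4D made up 65.7% and 63.5% of the sum with EV, and 61.8% and 58.9% with the FCN3 virus, and PDE4A went from 7.65% and 6.81% to 14.9% and 12.9%. So PDE4D remained the main PDE4 transcript at a lower total. The PDE7 genes summed to 11.2 and 10.2 TPM against 4.53 and 5.09, and the share of PDE7B went from 50.7% and 55.7% to 33.1% and 28.5%, which left PDE7A as the larger one. The CRTC sum was 41.2 and 53.8 TPM with EV and 41.8 and 51 TPM with the FCN3 virus, with overlapping groups. Over all 24 genes with phosphodiesterase names, the sum was 193 and 195 TPM with EV and 120 and 128 TPM with the FCN3 virus. PDE4D held 21.1% of it with EV and 12.5% with the FCN3 virus, and PDE6D held 19.7% and 27.5%. Catalytic and other subunits were not separated, so the sum is not one of enzymes alone. The sums include the members picked for their falls, so their direction is no independent result.

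RSEM weights a gene's length by the isoforms it finds, which gives a readout that the choice of members did not use. For PDE4D the length was 7799 and 7814 bases with EV, and 7837 and 7848 with the FCN3 virus. For PDE4B it was 3931 and 3960 bases with EV, and 3886 and 3898 with the FCN3 virus. In both genes the groups did not overlap, but they differed by only 37 and 53 bases in mean, little beside the length of either. For LINC00473 the length was 1563 and 1567 bases with EV. With the FCN3 virus it was 1465 and 1560, also without overlap, where few reads set the isoform weights. PDE4C, with few reads in every library, had 5021 bases in both EV libraries and 5124 in both FCN3 virus libraries. The share of all genes whose lengths separate the groups was not computed, so the lack of overlap has no background to be read against. PDE7A and PDE7B had 1 length in all 4 libraries.

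The genes nearest to each of the 4 picked members, by Euclidean distance of log2 CPM centred on each gene's mean over the 4 libraries, were sought among genes whose mean log2 CPM was 1 or more. Nearest to LINC00473 were CRTAC1 (distance 0.40), CPS1 (0.70) and NPTX1 (1.22). For PDE4B they were PKDCC (0.11), TRIM67 (0.15) and RHOV (0.15). For PDE4D they were SAPCD2 (0.12), SFMBT2 (0.14) and KIF20A (0.15), and for PDE7B they were IL11 (0.12), PON3 (0.15) and LOC388282 (0.15). None of the 4 members was among the nearest genes of another, and genes whose levels fell by like amounts lie near each other by the construction of this distance.

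The wider cAMP pathway was read through 9 lists of 128 genes, of which 103 were tested. edgeR called 1 of them, CPS1, without the block, where it called 0.965% of all genes. An unadjusted p under 0.05 was found for 32 of the 103, beside 25.1% of all genes. DESeq2 called 6, beside 7.86% of all genes. With the block edgeR called 45, or 43.7%, where 36.2% of all tested genes were called, 27 lower and 18 higher, beside 17.1% and 19.1% of all genes. By list, this fit called 84.2% of the tested known targets, 61.5% of the other phosphodiesterase genes and 58.3% of the calcineurin and 14-3-3 list. It called 50% of adenylyl cyclases, 41.7% of A-kinase anchors, 21.4% of receptors, G proteins and exchange factors, and 18.8% of the LKB1 list. The CREB list had 16.7% and the PKA list 12.5%. The shares of all genes given here are the background for every list below. The p-values printed for named genes below are edgeR's, adjusted over all genes, first without and then with the block. Some genes are given by their call alone. CREM, SIK1 and RGS2 stand in 2 lists each, and are counted once in these totals.

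**Figure D4:**
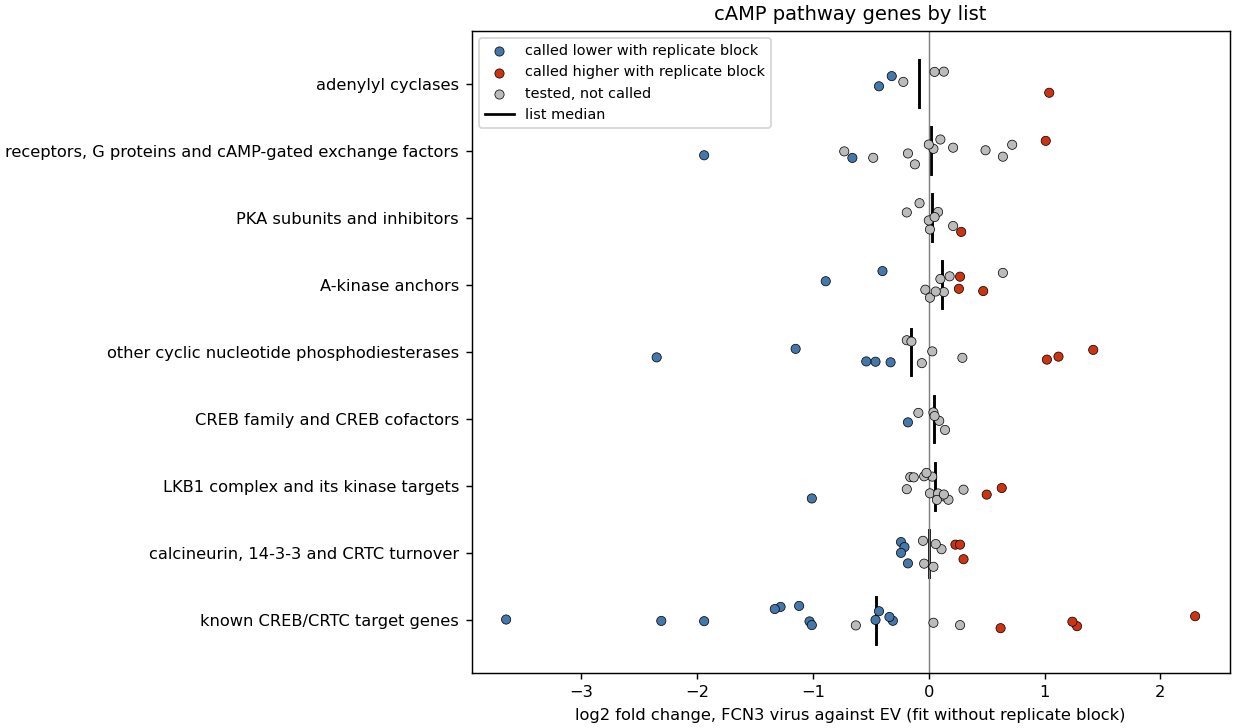
Log2 fold change of each tested gene in the 9 pathway lists, FCN3 virus against EV (edgeR without the replicate block), coloured by the call with the block, with list medians as black lines. The known CREB and CRTC targets spread from -3.65 to 2.30 around a median of -0.46, and the CREB family stays between -0.18 and 0.14.

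The known CREB and CRTC targets spread most, and in both directions. Of 19 tested, 1 was called lower without the block (0.227% of all genes were), 5 were called by DESeq2, and with the block 12 were called lower and 4 higher. Their median log2 fold change was -0.46, beside 0.02 for all genes. All the lists, this one included, were drawn up with earlier results of these data known. These counts and this median are therefore no independent test of the pathway. CPS1, the entry enzyme of the urea cycle, had 18 and 18.6 CPM with EV and 1.42 and 1.51 with the FCN3 virus, and fell by 3.65 (SE 0.18) on the log2 scale (adjusted p = 0.00193 and 5.4e-27). SCG2, a secretory granule protein, had 2.36 and 7.89 against 0.796 and 1.11 CPM (0.13 and 6.3e-11). RGS2, which damps G protein signals, had 33.6 and 22.5 against 8.84 and 5.58 CPM (0.0233 and 5.8e-23). INSL4, an insulin-like peptide, had 4.88 and 5.44 against 2.42 and 1.46 CPM (0.0541 and 1.7e-07).

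Other targets were higher. FOSB, an AP-1 subunit, had 0.329 and 0.418 CPM with EV and 1.86 and 1.66 with the FCN3 virus (0.0283 and 4.2e-07). PTGS2, the inducible cyclooxygenase, had 3.43 and 4.18 against 7.78 and 10.1 CPM (0.038 and 8.7e-10). NR4A2 had 0.604 and 0.896 against 1.92 and 1.41 CPM (0.109 and 5.6e-04), and CITED2 7.88 and 8.96 against 12.9 and 12.8 CPM (0.072 and 1.1e-05). Of the 3 NR4A nuclear receptors, NR4A2 was thus called higher with the block, and the other two were called lower. NR4A1 had 6.23 and 9.56 against 3.01 and 4.73 CPM (0.129 and 1.0e-07), and NR4A3 had 0.796 and 1.67 against 0.383 and 0.553 CPM (0.226 and 0.00366). In the promoter windows, 6 of 21 targets with an entry held the full element, beside 2.25% of all genes, in a list that was drawn up from known CREB targets.

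The other genes with phosphodiesterase names were mixed as well. Of 13 tested, 0 were called by edgeR without the block or by DESeq2, and 8 had an unadjusted p under 0.05, beside 25.1% of all genes. With the block 5 were called lower and 3 higher, beside 17.1% and 19.1% of all genes. PDE3A had 5.76 and 14.5 CPM with EV and 0.708 and 3.57 with the FCN3 virus (0.136 and 2.6e-16). PDE8B, another cAMP-specific enzyme, had 5.19 and 5.02 against 2.06 and 2.66 CPM (0.0467 and 7.5e-07). PDE3B and PDE1C differed by -0.54 and -0.46 on the log2 scale (0.102 and 1.3e-04 for PDE3B, 0.059 and 1.5e-06 for PDE1C). The 3 that were called higher were low in level, among them the cGMP-specific PDE5A with 0.466 and 1.19 against 1.8 and 2.06 CPM (0.133 and 1.7e-04), PDE2A with 0.851 and 0.836 against 1.77 and 1.96 CPM (0.0897 and 0.00126), and PDE6A with 1.04 and 1.13 against 2.09 and 2.31 CPM (0.0959 and 0.00131).

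Upstream of cAMP the differences were smaller. Of 6 adenylyl cyclases tested, 0 were called without the block or by DESeq2, and 3 had an unadjusted p under 0.05. With the block ADCY6, at 43.6 and 50.1 against 33.8 and 35.8 CPM, and ADCY3, at 120 and 131 against 98.7 and 103 CPM, were called lower, and ADCY5, at 0.823 and 1.25 against 1.65 and 2.51 CPM, was called higher. Of 14 receptors, G proteins and exchange factors, 0 were called without the block and 2 by DESeq2, and 4 had an unadjusted p under 0.05. With the block RGS2 and GNAI1, an inhibitory G protein at 42.5 and 37.9 against 25.9 and 24.9 CPM (0.0308 and 1.4e-10), were called lower.

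PKA and CREB genes had few calls. Of 8 PKA subunits and inhibitors, 0 were called without the block or by DESeq2 and 0 had an unadjusted p under 0.05, and with the block only the catalytic subunit PRKACB was called, higher, at 32.4 and 27.1 against 38.7 and 33.7 CPM. Of 6 genes of the CREB family and its cofactors the counts were again 0, 0 and 0, and NONO, at 698 and 699 against 616 and 615 CPM, was the only one called with the block. CREB1 had 45.7 and 41.8 against 43.1 and 39.2 CPM (0.655 and 0.299). Of 12 A-kinase anchors, which tether PKA, 0 were called without the block or by DESeq2 and 4 had an unadjusted p under 0.05. With the block AKAP5 and AKAP1 were called lower, with log2 fold changes of -0.89 and -0.40, and AKAP2, AKAP13 and AKAP9 higher, with 0.47, 0.27 and 0.26.

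Among the genes that set where CRTC proteins lie, SIK1 differed most. SIK1, a salt-inducible kinase that is itself a CREB target, had 177 and 283 CPM with EV and 94.5 and 134 with the FCN3 virus (log2 fold change -1.01, SE 0.27, 0.0877 and 6.1e-22). SIK2 had 25.4 and 26.2 against 22.5 and 24.5 CPM (0.516 and 0.169), and SIK3 22.1 and 21.6 against 22.9 and 25.3 CPM (0.532 and 0.219). STK11, mutated in this line, had 47.2 and 51.9 against 42.6 and 45.9 CPM (0.392 and 0.0414). Of the 16 genes of the LKB1 complex and its kinase targets, 0 were called without the block and 1 by DESeq2, and 3 had an unadjusted p under 0.05. With the block SIK1 was lower, and NUAK1 and CAB39L were higher by 0.50 and 0.63 on the log2 scale.

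Of 12 genes of calcineurin, 14-3-3 proteins and CRTC turnover, 0 were called without the block or by DESeq2, and 2 had an unadjusted p under 0.05. With the block 4 of the 14-3-3 genes were called lower, YWHAE, YWHAH, YWHAG and YWHAQ, with log2 fold changes between -0.24 and -0.18. SFN (a 14-3-3 protein of epithelia), RFWD2 (a ubiquitin ligase also called COP1) and PPP3R1 (the calcineurin regulatory subunit) were called higher by 0.30, 0.27 and 0.23. No member of this list differed by more than 0.30 on the log2 scale.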

How the data were processed

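A549 libraries from 2 EV and 2 FCN3 virus samples were used, grouped by their labels. The authors prepared TruSeq stranded mRNA libraries, removed adapters and poor reads, aligned them to hg19 with STAR 2.6.1d and quantified them with RSEM. The authors deposited expected counts (estimated counts, not normalized), TPM and FPKM, both scaled for length and depth, and FPKM was not analysed. The strand setting of the counting is not given in the sources used here, and reads were divided between LINC00473 and LINC00602 and between PDE4D and PART1, on opposite strands, so values of overlapping genes are uncertain. PDE4A and PDE7A, which overlap CDC37 and MTFR1 on the opposite strand, had whole counts in all 4 libraries. Gene lengths are RSEM's estimates, weighted by isoform.

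Expected counts were rounded, filtered with filterByExpr, normalized by TMM and tested in R 4.3.3 with edgeR 4.0.16 (quasi-likelihood test, Benjamini-Hochberg adjustment over 14099 genes, threshold 0.01), without a replicate block. Alternatives were the block, DESeq2 1.42.0 (also with the block), RLE factors, other count filters, FCN3 left out before normalization, limma 3.58.1 on log2(TPM + 1) and log2(TPM + 0.1), an FDR of 0.05 and each library left out. The fit was tested on simulated data. The SE printed for a log2 fold change was derived from edgeR's test, as its absolute size divided by the square root of the F statistic. Summed counts of LINC00473 with LINC00602 and of PDE4D with PART1 were added after seeing the data. Intervals of level were not computed, and the floor of 3 counts, 0.0823 to 0.179 CPM, covers counting error only.

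The members and lists were chosen with earlier results of these data known. Genes named are the 10 members, in each list those called without the block and up to 4 in each direction of those called with it, the 3 nearest genes of the picked members, FCN3, and 3 neighbours on each side of LINC00473. NR4A1, NR4A3, PDE6D, STK11, CREB1, SIK2 and SIK3 were added after their values were seen. Of the list genes, 1 named by the rule is left out. Same-numbered libraries deviated together from their group means (r = 0.806 across 8310 genes, which are not replicates), but with 2 pairs the labels give only a shared number. Neighbour order and promoters came from RefSeq, positions from GENCODE on GRCh37.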

Additional observations from a re-analysis of the deposited data

How the results depend on the processing

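The falls of LINC00473, PDE4B, PDE4D and PDE7B kept their direction under every alternative run, and the log2 fold change of LINC00473 ranged from -4.51 to -3.53. The median of these 4 genes was -1.61 in the reported fit, -1.39 in limma with 1 added to TPM and -1.66 with 0.1 added, and -1.69 to -1.57 with each library left out. The number of genes called was 136 in the reported fit, 5103 with the replicate block, 1047 with DESeq2, 2212 with DESeq2 and the block, 1014 at an FDR of 0.05, and 92 to 267 with each library left out, where leaving out EV replicate 2 gave the 267. Pairing by replicate number called 1 of the 6 genes taken by family, against 0 without it, and 45 pathway genes, against 1. DESeq2 called 6 pathway genes, and 25 with the block. The direction of genes near 0 was not stable. CRTC2 went from 0.04 to -0.06 with limma on either TPM scale, to -0.19 without EV replicate 1 and to -0.11 without FCN3 virus replicate 2. CRTC1 went from -0.08 to 0.28 without EV replicate 2 and to 0.03 without FCN3 virus replicate 1, with a range of -0.44 to 0.28 over libraries left out. PDE4C went from 0.64 to -0.08 without EV replicate 1, with a range of -0.08 to 1.20, and CRTC2 ranged from -0.19 to 0.28. The cause of these changes was not tested. Without the minimum level, 2 of the 3 nearest genes stayed for LINC00473, PDE4B and PDE4D, and 3 of 3 for PDE7B. Fits that leave out a library assume that the lone sample varies like the other group. DESeq2 gave no adjusted p for PDE4C. Depth limits PDE4C most, at 8 to 15 counts.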
